A study of Mus musculus with 6 samples.

Results

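The forkhead genes encode transcription factors that share a winged-helix DNA-binding domain, and 44 of the 21887 protein-coding genes of the mouse gene table used here carried a symbol made of Fox, a letter and a number. They were taken by symbol alone, with no measured value, although the family was chosen with earlier results of these data known. Open chromatin near them was read from ATAC-seq, which uses the Tn5 transposase to cut and tag accessible DNA, in CGR8 mouse embryonic stem cells. The series, titled for genome reactivation at mitotic exit, holds 3 groups of 2 samples named mito, LM and eG1-1, read here as mitosis, late mitosis and early G1, although no label spells them out and peaks of the LM lists are named Telo. The N2B27 in every sample title matches the medium of the Cdt-MD cells of the protocols, a CGR8 line that was left untreated and grown without serum on the inhibitors CHIR99021 and PD184352 and leukemia inhibitory factor. The name CGR8 and the N2B27 of the titles are the same in all 6 samples. That every group was untreated is read only from the match to the Cdt-MD cells, since no label names the line beyond CGR8. The titles and the protocol disagree on the number of cells per sample, and the way cells of each phase were obtained is not stated in any source read here. The labels do not say whether replicates were separate cultures, so any p-value measures only the spread between these lists, which may be technical.

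Forkhead factors bind a short core motif, and some of them, above all the FOXA proteins, can bind DNA wrapped in nucleosomes and open it for other factors. Mouse embryonic stem cells rely on a small part of the family: FOXD3 helps to keep the cells undifferentiated, FOXO1 supports the pluripotency genes, FOXH1 is the DNA-binding partner of the SMAD proteins in Nodal signalling, and FOXM1 drives genes of G2 and mitosis. Most other members are switched on later, in endoderm, mesoderm, the nervous system, the gonads or the immune system.

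A gene-end peak is a peak overlapping the 1 kb on either side of an annotated start or end of a gene. A distal peak has its centre within 50 kb of a gene end and over 1 kb from the ends of every protein-coding gene. A peak that reaches into a 1 kb window with its centre outside every such window counts as both. A RefSeq table of promoters on GRCm38.p6 held 33 promoters for 28 of the 44 genes, each reaching from 250 bases before a transcription start to 50 bases after it. The 250 bases before the start are printed for 6 genes that show the range of what the lists held there. A peak overlapped the promoters of Foxd2 and Foxa3 in all 6 lists, of Foxd1 in 5 lists, of Foxo1 in 4, of Foxr1 in the 2 eG1-1 lists, and of Foxd3 in none. The Foxd2 bases are chr4:114908899-114909148 on the minus strand, those of Foxa3 chr7:19023540-19023789 on the minus strand, and those of Foxd1 chr13:98353995-98354244 on the plus strand. The Foxo1 bases are chr3:52268087-52268336 on the plus strand, those of Foxr1 chr9:44440869-44441118 on the minus strand, and those of Foxd3 chr4:99656049-99656298 on the plus strand. Each runs 5′ to 3′ in the direction of the gene, and capitals mark matches, on either strand, to the motifs described with the promoter results.
Foxd2: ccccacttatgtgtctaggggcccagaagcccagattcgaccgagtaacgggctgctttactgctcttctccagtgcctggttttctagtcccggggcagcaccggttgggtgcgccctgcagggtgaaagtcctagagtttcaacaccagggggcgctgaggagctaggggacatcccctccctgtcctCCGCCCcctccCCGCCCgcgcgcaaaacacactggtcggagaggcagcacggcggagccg
Foxa3: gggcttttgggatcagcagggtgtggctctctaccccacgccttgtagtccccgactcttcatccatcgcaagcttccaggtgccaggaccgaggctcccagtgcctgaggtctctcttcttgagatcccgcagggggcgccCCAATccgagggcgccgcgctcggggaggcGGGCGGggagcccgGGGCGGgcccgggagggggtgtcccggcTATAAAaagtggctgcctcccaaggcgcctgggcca
Foxd1: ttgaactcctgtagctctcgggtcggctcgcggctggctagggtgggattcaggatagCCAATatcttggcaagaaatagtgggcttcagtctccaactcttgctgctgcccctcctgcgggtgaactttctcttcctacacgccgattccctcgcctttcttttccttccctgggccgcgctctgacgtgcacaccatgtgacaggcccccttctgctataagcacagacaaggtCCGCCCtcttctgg
Foxo1: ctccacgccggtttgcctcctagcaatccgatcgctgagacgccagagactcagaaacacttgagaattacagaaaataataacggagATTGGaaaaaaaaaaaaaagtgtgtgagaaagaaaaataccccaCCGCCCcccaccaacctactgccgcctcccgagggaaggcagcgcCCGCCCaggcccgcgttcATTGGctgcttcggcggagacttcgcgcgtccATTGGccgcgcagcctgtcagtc
Foxr1: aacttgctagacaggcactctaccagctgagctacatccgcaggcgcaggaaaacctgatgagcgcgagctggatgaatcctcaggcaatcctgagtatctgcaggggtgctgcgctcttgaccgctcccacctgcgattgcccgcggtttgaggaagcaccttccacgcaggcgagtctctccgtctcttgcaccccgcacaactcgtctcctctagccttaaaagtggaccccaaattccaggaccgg
Foxd3: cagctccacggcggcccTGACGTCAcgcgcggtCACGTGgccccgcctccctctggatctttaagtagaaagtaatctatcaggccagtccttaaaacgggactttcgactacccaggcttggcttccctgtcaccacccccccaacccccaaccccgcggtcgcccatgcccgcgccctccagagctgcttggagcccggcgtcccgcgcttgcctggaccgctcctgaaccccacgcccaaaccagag

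The lists held 24598 and 30446 peaks in the mito lists, 23867 and 20639 in the LM lists, and 32101 and 48396 in the eG1-1 lists. Read depth is unknown, since the lists hold no counts, and a gene without a peak is a gene where none was called. LM replicate 2 was the shortest list, with gene-end peaks at 35.7% of all protein-coding genes against 42.1% to 52.7% in the others. Replicate 1 of every group came from 1 sequencing run and replicate 2 from another, per the peak names, so values per list are also values within a run. Pairs of values are given as replicate 1 and replicate 2, and 3 pairs without names stand for mito, LM and eG1-1 in that order. Of 10 embryonic stem cell marker genes, 8, 6, 6, 5, 3 and 7 had a gene-end peak in mito replicates 1 and 2, LM 1 and 2 and eG1-1 1 and 2. The endoderm genes Gata4, Gata6 and Sox17 had none in any list, while 1 to 3 of 4 fibroblast genes, 1 to 3 of 3 neural genes and 0 to 1 of 3 trophoblast genes had one. The part of the other cell types in the forkhead results was not tested.

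Gene-end peaks were called at 20 and 25 of the 44 forkhead genes in the mito lists, 22 and 8 in the LM lists, and 15 and 20 in the eG1-1 lists. That is 45.5% and 56.8%, 50.0% and 18.2%, and 34.1% and 45.5% of the family. The same shares over all protein-coding genes were 46.6% and 50.4%, 47.4% and 35.7%, and 42.1% and 52.7%. The forkhead share was thus above that of all genes in mito replicate 2 and LM replicate 1 and below it in the other 4 lists. The mito lists had a mean of 22.5 ± 3.54 genes, the LM lists 15.0 ± 9.90 and the eG1-1 lists 17.5 ± 3.54 (SD, n = 2 each). The counts of the 3 groups overlapped, and 2 lists against 2 cannot reach an exact permutation p below 0.333, so no test was made of them. LM replicate 2 lay apart: without it the LM value was 22 genes, and without LM replicate 1 it was 8.

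With every list shortened to its 20639 strongest peaks, as many as LM replicate 2 held, the forkhead counts were 20 and 16 in the mito lists, 19 and 8 in the LM lists, and 11 and 8 in the eG1-1 lists. Both eG1-1 counts then lay below both mito counts. Over all genes the shares at this length were 43.7% and 43.5%, 44.9% and 35.7%, and 34.5% and 35.8%, so all protein-coding genes showed the same order. The eG1-1 mean fell to 9.5 genes.

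**Figure D1:**
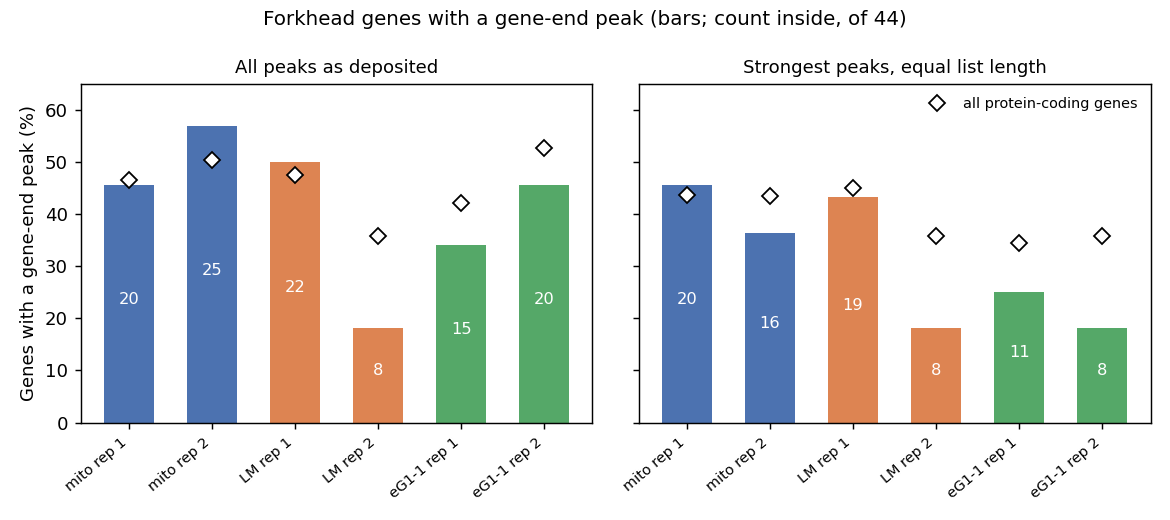
The bars give the percentage of the 44 forkhead genes with a gene-end peak in each list, for the lists as deposited and for equal list length, with the number of genes inside and the share over all protein-coding genes marked for each list. LM replicate 2 is the lowest list as deposited, with 8 genes, and eG1-1 replicate 2 falls from 20 genes to 8 at equal length.

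Most members were neither always nor never marked: 26 of the 44 (59.1%) had a gene-end peak in 1 to 5 lists, against 33.6% of all protein-coding genes. Other families of developmental factors showed this too, with 14 of 19 Sox genes (73.7%) and 23 of 39 Hox genes (59.0%). A peak in all 6 lists was found at 5 forkhead genes (11.4%), against 27.8% of all genes. A peak in no list was found at 13 (29.5%), against 38.6% of all genes. The score is the authors' value for each peak, on a scale that the sources do not give, so scores are set side by side and no difference in score between lists is drawn. In every list the median score of the forkhead gene-end peaks was below that of all genes with one. The forkhead medians were 57.5 and 60 in the mito lists, 65 and 39 in the LM lists, and 50 and 61 in the eG1-1 lists, against 80 and 93, 78 and 68, and 74 and 98 over all genes. Forkhead genes were also short, with a median length of 5194 bp against 17169 bp over all protein-coding genes.

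The genes marked in all 6 lists were Foxo6, Foxd2, Foxo4, Foxa3 and Foxj3. Foxo6, a FOXO factor best known from the brain, had the highest score of the family in 3 lists, with 131 and 71 in the mito lists, 155 and 81 in the LM lists, and 92 and 135 in the eG1-1 lists. Foxo4, another FOXO factor restrained by AKT, had scores of 44 and 111, 56 and 26, and 68 and 145. Foxj3, a broadly expressed factor active in muscle and testis, had 90 and 105 in the mito lists, 64 and 35 in the LM lists, and 46 and 57 in the eG1-1 lists. The FOXO genes thus made up 2 of the 5, and with Foxo3 they held the highest forkhead score of every list. Foxd2, a mesenchymal gene, had scores of 32 and 73, 95 and 58, and 62 and 65 over chr4:114908955-114909706, which overlaps the promoter printed above. Foxa3, an endoderm and liver gene, had 60 and 63, 86 and 38, and 42 and 93 over its promoter. The endoderm factor gene Foxa3 was therefore accessible in every list while the other endoderm members, Foxa1, Foxa2 and Foxe1, had a peak in at most 1 list. The windows of Foxa3 also overlap those of Sympk, those of Foxj3 overlap Frg2f1 and those of Foxo4 overlap Gm614. A peak in a shared window cannot be given to the forkhead gene alone, though the overlap was read over both ends together.

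**Figure D2:**
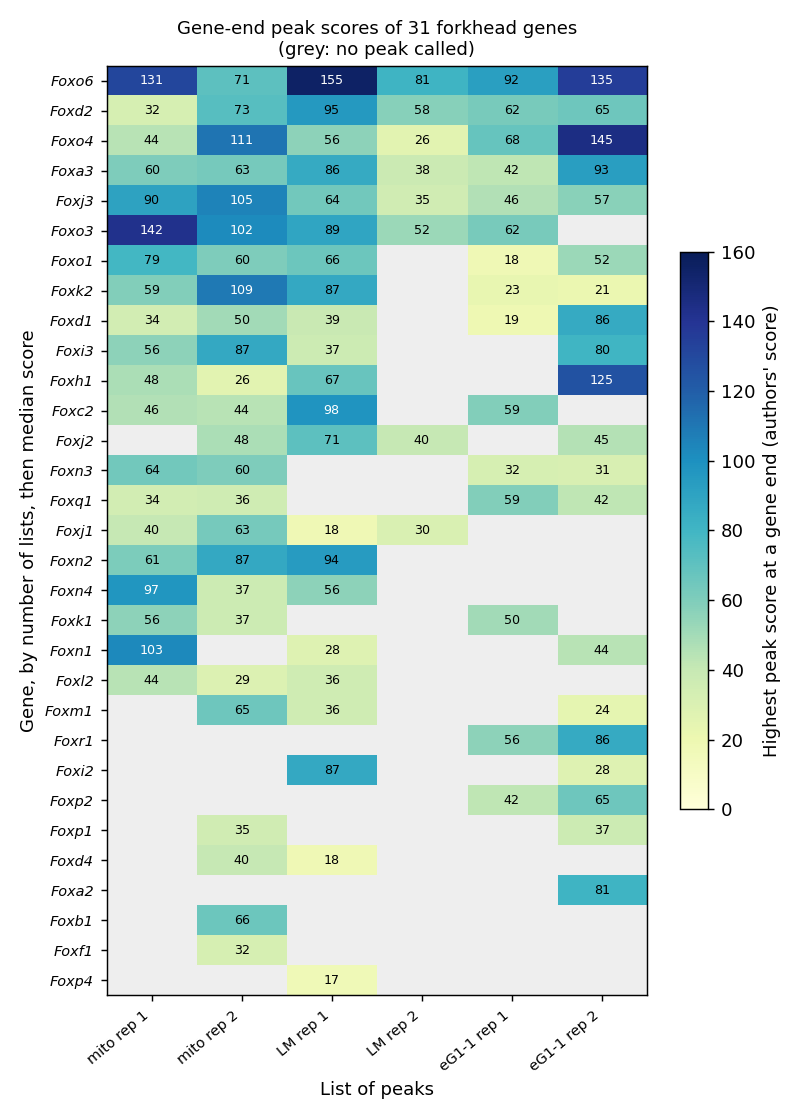
Each row is 1 of the 31 forkhead genes with a gene-end peak in any list, each column is a list, and the colour and number give the highest peak score at the gene's ends, with grey where no peak was called. The rows of Foxo6, Foxd2, Foxo4, Foxa3 and Foxj3 are filled in all 6 lists, and the column of LM replicate 2 holds 8 scores.

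Of the 6 members tied to embryonic stem cells or the cell cycle, 3 and 5 had a gene-end peak in the mito lists, 4 and 1 in the LM lists, and 2 and 4 in the eG1-1 lists. Foxo3, a FOXO factor known from stem cell maintenance, had scores of 142 and 102 in the mito lists, 89 and 52 in the LM lists and 62 in eG1-1 replicate 1. In eG1-1 replicate 2 the peak of the same merged region, chr10:42277166-42278169, scored 117 but did not reach into the 1 kb window. Read by region, Foxo3 was marked in all 6 lists. Foxo1 had scores of 79 and 60 in the mito lists, 66 and none in the LM lists, and 18 and 52 in the eG1-1 lists. The peak overlapped the promoter printed above in all of these but eG1-1 replicate 1, where it lay in the 1 kb window beside it. Foxh1 had scores of 48 and 26 in the mito lists, 67 and none in the LM lists, and none and 125 in the eG1-1 lists. The windows of Foxh1, taken over both ends, overlap those of Kifc2 and Ppp1r16a. Foxm1 had a peak of score 65 in mito replicate 2, 36 in LM replicate 1 and 24 in eG1-1 replicate 2. The windows of Foxm1, taken over both ends, overlap those of Rhno1 and Tex52. For both genes, lists of the same group disagreed.

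Foxd3 had no gene-end peak in any list. Foxp1, a repressor with an isoform specific to embryonic stem cells, had a gene-end peak of 35 in mito replicate 2 and 37 in eG1-1 replicate 2. Its 3 listed promoters lie inside the annotated gene. The region chr6:99520825-99521599, centred 1534 bp from the gene end, overlaps 1 of them and had scores of 52 and 53 in mito, none in either LM list, and 42 in eG1-1 replicate 2. It counts as distal under the rule used here.

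The comparison of mito with eG1-1 asks which sites open in mitosis are closed after it and the reverse. A gene was counted as different when both lists of 1 group and neither list of the other held a gene-end peak. Foxj1, Foxl2, Foxn2 and Foxn4 had a peak in both mito lists and in no eG1-1 list, 4 of 44 where 1.97% of all genes were. Foxp2 and Foxr1 were held by both eG1-1 lists and neither mito list, 2 of 44 where 1.61% of all genes were. Foxn2, a broadly expressed member, had scores of 61 and 87 in mito, 94 and none in LM, and none in eG1-1. In eG1-1 replicate 2 a peak of 38 lay just outside the Foxn2 window, over chr17:88441777-88442086. Foxn2 was not called in this comparison with a 2 kb window. Foxn4, which directs retinal and spinal interneurons, had 97 and 37, 56 and none, and none in eG1-1. Foxl2, the ovarian granulosa cell gene, had 44 and 29, 36 and none, and none in eG1-1. Its region, chr9:98956870-98957352, reached the window of the end opposite its start. It was centred 1015 bp from that end, so it also counts as distal. Foxl2 was not called when the peak centre had to lie in the window. LM replicate 1 thus resembled mito at these 3 genes and LM replicate 2 resembled eG1-1.

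Foxj1, which directs the building of motile cilia, had gene-end scores of 40 and 63 in the mito lists, 18 and 30 in the LM lists and none in eG1-1. It was the single forkhead gene held by both LM lists and neither eG1-1 list, where 0.480% of all genes were. The peaks did not all lie at the same place. The region chr11:116329780-116330632 beside the lower-numbered end had 40 and 44 in mito and 18 in LM replicate 1, while the peak of LM replicate 2 lay at the other end. A neighbouring region at chr11:116329249-116329593, just outside the window, had 31 and 59 in mito and 26 in eG1-1 replicate 2. Its windows overlap those of Rnf157.

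Foxr1, a little-studied member, had scores of 56 and 86 in eG1-1 and no peak in any mito or LM list. The region, chr9:44440795-44441318, overlaps its promoter printed above, and its windows overlap those of no other gene. Foxp2, known for its part in vocal learning, had scores of 42 and 65 in eG1-1 and none in the other 4 lists, at chr6:14900394-14900922. Foxp2 was not called in this comparison at equal list length or with scores of at least 50, while Foxr1 was called in both.

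LM was compared with its neighbours in the same way, and the 3 groups share lists between comparisons. Foxk1, Foxn3 and Foxq1 had a peak in both mito lists and in no LM list, 3 of 44 where 2.17% of all genes were. No forkhead gene was held by both LM lists and neither mito list, where 0.356% of all genes were. Foxn3, Foxp2, Foxq1 and Foxr1 were held by both eG1-1 lists and neither LM list, 4 of 44 where 2.35% of all genes were. Foxn3, a repressor with a part in the DNA damage checkpoint, had 64 and 60 in mito, none in LM, and 32 and 31 in eG1-1. Foxq1, a factor of hair and epithelium, had 34 and 36, none, and 59 and 42. At both genes the LM lists alone lacked the peak. Foxk1, which restrains autophagy genes, had 56 and 37 in mito, none in LM, and 50 and none in eG1-1, all at its lower-numbered end. Its windows, taken over both ends, overlap those of Ap5z1. In eG1-1 replicate 2 a peak of 40 lay just outside the Foxk1 window, over the region that gave mito replicate 1 its 56. The 37 of mito replicate 2 and the 50 of eG1-1 replicate 1 lay in another region, chr5:142401051-142401386. Neither region was thus held by both mito lists. Foxk1 was not called in this comparison with a 500 bp or 2 kb window or by peak centre.

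These calls rested on 2 lists per group. Leaving out a list raised the share of all genes called, while the forkhead count rose in some comparisons and stayed in others. Without mito replicate 2, mito not LM stayed at 3 (3.54% of all genes), mito not eG1-1 at 4 (3.14%) and eG1-1 not mito at 2 (4.24%). Without LM replicate 2, mito not LM stayed at 3 (3.42%) and eG1-1 not LM at 4 (3.83%). Without LM replicate 1 the genes held by mito and not LM went from 3 to 12, where the share of all genes went from 2.17% to 11.2%, and those held by eG1-1 and not LM from 4 to 7, where it went from 2.35% to 8.83%. Without mito replicate 1, mito not LM held 6 forkhead genes (5.21% of all genes) and mito not eG1-1 held 7 (3.72%). Without eG1-1 replicate 1, mito not eG1-1 held 7 (2.97%), eG1-1 not mito 4 (5.44%) and LM not eG1-1 2 (0.832%). Without LM replicate 2, LM not eG1-1 held 6 (3.27%) and LM not mito 2 (2.29%). LM not eG1-1 held 2 without eG1-1 replicate 2 (3.29%), and LM not mito held 1 without mito replicate 2 (1.63%). At equal length Foxn3 alone was held by mito and not LM (1.49% of all genes), and Foxr1 alone by eG1-1 and not mito (0.809%) or not LM (0.740%). Mito not eG1-1 then held Foxj1, Foxk2, Foxn2, Foxn3 and Foxo1, where 5.35% of all genes were called.

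Among the other broadly expressed members, Foxk2, a partner of Foxk1 in the control of metabolism, had scores of 59 and 109 in the mito lists, 87 and none in the LM lists, and 23 and 21 in the eG1-1 lists. LM replicate 2 alone lacked the peak. Foxj2 had 48 in mito replicate 2, 71 and 40 in LM, and 45 in eG1-1 replicate 2, all at its start. Its windows, taken over both ends, overlap those of C3ar1. Foxp4 had a single weak peak of 17 in LM replicate 1. With Foxj3, Foxo4, Foxo6, Foxk1, Foxn2 and Foxn3, 9 genes were grouped as broadly expressed, although Foxo6 is best known from the brain. Of these, 7 and 8 were marked in mito, 7 and 4 in LM, and 6 in each eG1-1 list. None of the 9 lacked a peak in all 6 lists, where 38.6% of all protein-coding genes did.

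The 9 mesoderm members had gene-end peaks at 4 and 5 genes in the mito lists, 3 and 1 in the LM lists, and 4 and 3 in the eG1-1 lists. Foxd1, a gene of the kidney stroma, had scores of 34 and 50, 39 and none, and 19 and 86. Foxc2, needed for vessels and somites, had 46 and 44 in mito, 98 in LM replicate 1 and 59 in eG1-1 replicate 1. Foxf1, of the visceral mesoderm, had 1 peak of 32 in mito replicate 2. Foxc1, Foxf2, Foxl1 and Foxs1 had none in any list.

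The 11 neural and sensory members had 3 and 5 marked genes in the mito lists, 5 and 1 in the LM lists, and 1 and 3 in the eG1-1 lists. Foxi3, a gene of the ear and tooth placodes, had scores of 56 and 87 in mito, 37 in LM replicate 1 and 80 in eG1-1 replicate 2. Foxi2 had 87 in LM replicate 1 and 28 in eG1-1 replicate 2, Foxd4 had 40 in mito replicate 2 and 18 in LM replicate 1, and Foxb1, a gene of the hypothalamus, had 66 in mito replicate 2. Foxb2, Foxi1 and the lens gene Foxe3 had none.

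Of the 4 endoderm members, 1 was marked in each of the first 5 lists and 2 in eG1-1 replicate 2. The added gene was Foxa2, a pioneer factor of endoderm, with a score of 81. Foxa1 and the thyroid gene Foxe1 had none. Of the 5 immune and gonadal members, 2 and 1 were marked in the mito lists, 2 and 0 in the LM lists, and 1 and 2 in the eG1-1 lists. Foxn1, the gene of the thymic epithelium, had 103 in mito replicate 1, 28 in LM replicate 1 and 44 in eG1-1 replicate 2. Its region reached the window of the end opposite its start but was centred 1167 bp from it, so it also counts as distal. Foxp3, the gene of regulatory T cells, and Foxr2 had none.

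Strand was known for 19 of the 31 forkhead genes with a gene-end peak. At 16 of them the peak reached the window of the start in every list that held it. At Foxl2 and Foxn1 it reached only that of the far end, and at Foxd4 both. Of all 44 genes, 10 had windows that overlap those of another gene, and 8 of the 10 had a gene-end peak. The overlap was read over both ends together, so the shared window need not be the one with the peak.

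Distal peaks counted per gene came to 74 and 111 in the mito lists, 78 and 56 in the LM lists, and 85 and 158 in the eG1-1 lists, with a peak near more than 1 forkhead gene counted for each. The means were 92.5 ± 26.2, 67.0 ± 15.6 and 122 ± 51.6 (SD, n = 2 each), and the ranges of mito and eG1-1 overlapped. Per 1000 distal peaks of the list, a forkhead gene had 0.118 ± 0.0106 in mito, 0.108 ± 0.0210 in LM and 0.0892 ± 0.0104 in eG1-1. Over all protein-coding genes the values were 0.0879 ± 7.07e-05, 0.0850 ± 0.00170 and 0.0824 ± 0.000778. The forkhead value per list was 0.111 and 0.126, 0.123 and 0.0933, and 0.0819 and 0.0966. Both mito values lay above both eG1-1 values, and the eG1-1 values lay at and above those of all genes, 0.0819 and 0.0830. In the Sox and Hox families, too, both mito values lay above both eG1-1 values. Sox genes had 0.114 and 0.102 in mito and 0.0759 and 0.0779 in eG1-1. Hox genes had 0.172 and 0.186 in mito and 0.102 and 0.128 in eG1-1. At equal list length the mean number of forkhead distal peaks was 60.0 in mito and 53.0 in eG1-1. The counts per list, 57 and 63 in mito and 58 and 48 in eG1-1, overlapped. Per 1000 distal peaks they were 0.107 and 0.117 in mito and 0.094 and 0.0787 in eG1-1.

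Per gene, the slope of this value over mito, LM and eG1-1 was tested by an exact two-sided permutation test over 90 assignments of the lists. The LM lists carry no weight in this slope. Of 39 forkhead genes with a distal peak, 0 rose and 1 fell at an unadjusted p under 0.05, against 2.09% rising and 2.14% falling of the 18333 genes tested. After Benjamini-Hochberg adjustment over all genes, 0 forkhead genes and 0 of all genes passed. The gene that fell was Foxj1, with 6 and 8 distal peaks in the mito lists, 4 and 5 in the LM lists, and 3 and 4 in the eG1-1 lists. Its value fell by 0.14 peaks per 1000 and step, with an exact permutation p of 0.0222, the smallest the test can give, and an adjusted p of 0.685. Its p was 0.156 at equal list length, 0.244 with scores of at least 50 and 0.0667 within 25 kb, each by the same exact permutation test. Foxd3 had 6 and 6 distal peaks in the mito lists, 4 and 3 in the LM lists, and 6 and 8 in the eG1-1 lists, with an exact permutation p of 0.0667. Its value per 1000 distal peaks was 0.395 and 0.300 in mito and 0.254 and 0.215 in eG1-1.

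**Figure D3:**
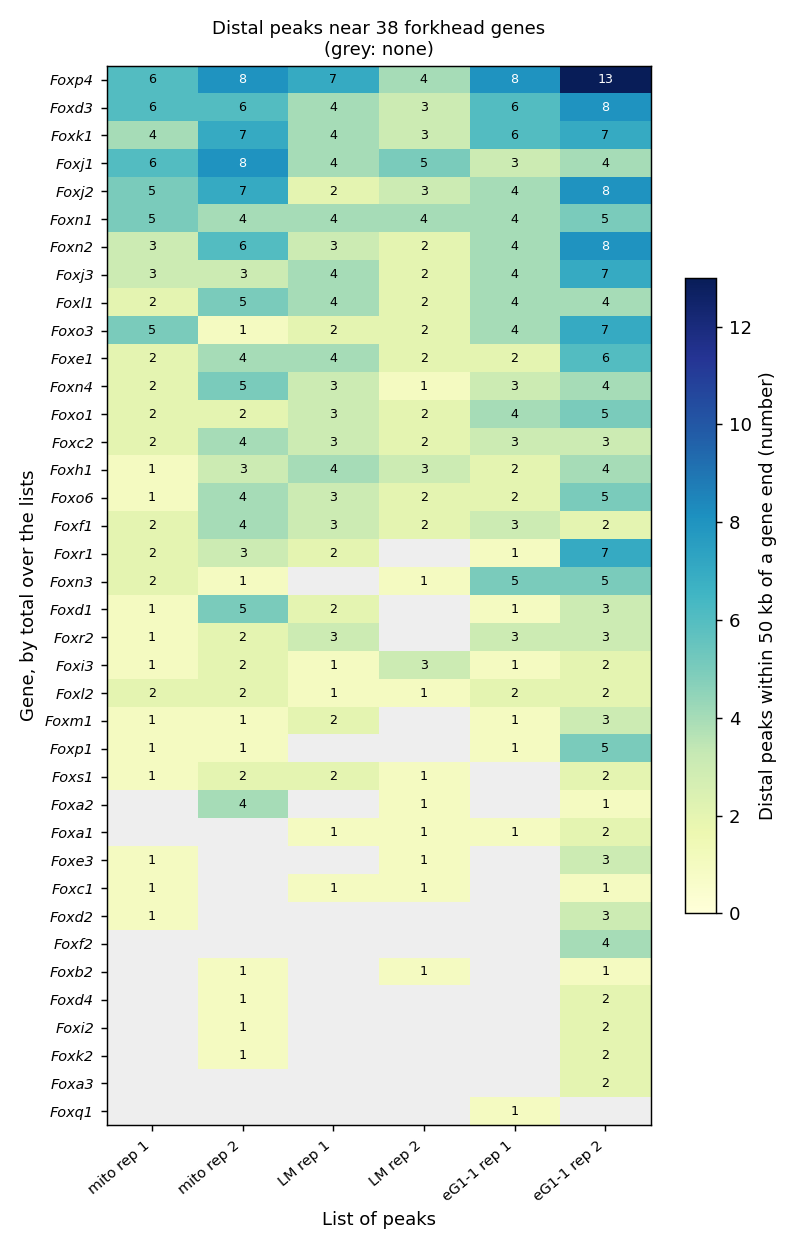
Each row is 1 of 38 forkhead genes with a distal peak within 50 kb of an end, each column is a list, and the number and colour give the number of such peaks, with grey for none. Foxp4 has the highest total, with 13 in eG1-1 replicate 2, and Foxj1 goes from 6 and 8 in mito to 3 and 4 in eG1-1.

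The family was uneven in this respect. Foxp4 had 6 and 8 distal peaks in the mito lists, 7 and 4 in the LM lists, and 8 and 13 in the eG1-1 lists, and Foxk1 had 4 and 7, 4 and 3, and 6 and 7. Foxb1, Foxi1, Foxo4, Foxp2 and Foxp3 had no distal peak in any list. Of the 13 genes without a gene-end peak, 11 had a distal peak, so that Foxi1 and Foxp3 alone had neither kind. Foxb1, Foxo4 and Foxp2 were the reverse case, with a gene-end peak in at least 1 list and nothing distal.

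Peaks of all lists that overlapped were merged into regions, and 219 distal regions lay within 50 kb of a forkhead gene. All 6 lists held 19 of them (8.68%), against 10.0% of all 51229 distal regions, and 106 were held by 1 list. By median score over the lists, the first lay 8910 bp before the start of Foxj2, at chr6:122810430-122812118, with scores of 283 and 269 in the mito lists, 184 and 165 in the LM lists, and 202 and 308 in the eG1-1 lists. The next lay inside Foxk1, at chr5:142439854-142441420, with 108 and 221, 152 and 188, and 162 and 334. Beyond Foxe1, by 29224 and 43427 bp, regions at chr4:46374555-46375441 and chr4:46388739-46389664 had scores of 99 to 228 and of 92 to 162, although the gene itself had no gene-end peak. The Foxf1, Foxc2 and Foxl1 cluster shared a region at chr8:121125351-121125967, 2026 bp from Foxl1, with 114 and 126, 126 and 88, and 53 and 236.

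Foxo1 had a region in all 6 lists on each side. The region 14030 bp before its start, chr3:52253906-52254708, had 131 and 139 in the mito lists, 104 and 79 in the LM lists, and 98 and 140 in the eG1-1 lists. The other, chr3:52390514-52391368, lay 40832 bp past its far end and had 39 and 130, 43 and 65, and 173 and 205. LM replicate 2 thus held a peak on both flanks of Foxo1 and none at its ends. Regions near Foxj3 (chr4:119592340-119592966, inside the gene, 57 to 193), Foxn1 (chr11:78435399-78436302, 49067 bp from its nearer end, 42 to 130) and Foxi3 (chr6:70964032-70964990, 3445 bp from its nearer end, 28 to 151) complete the 10 with the highest median score. Chosen after its values were seen, the region 19952 bp before Foxd3, chr4:99635495-99637200, had 130 and 100 in the mito lists, 72 and 42 in the LM lists, and 67 and 70 in the eG1-1 lists. Foxd3 thus had open chromatin nearby in every list without a called peak at its own ends.

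**Figure D4:**
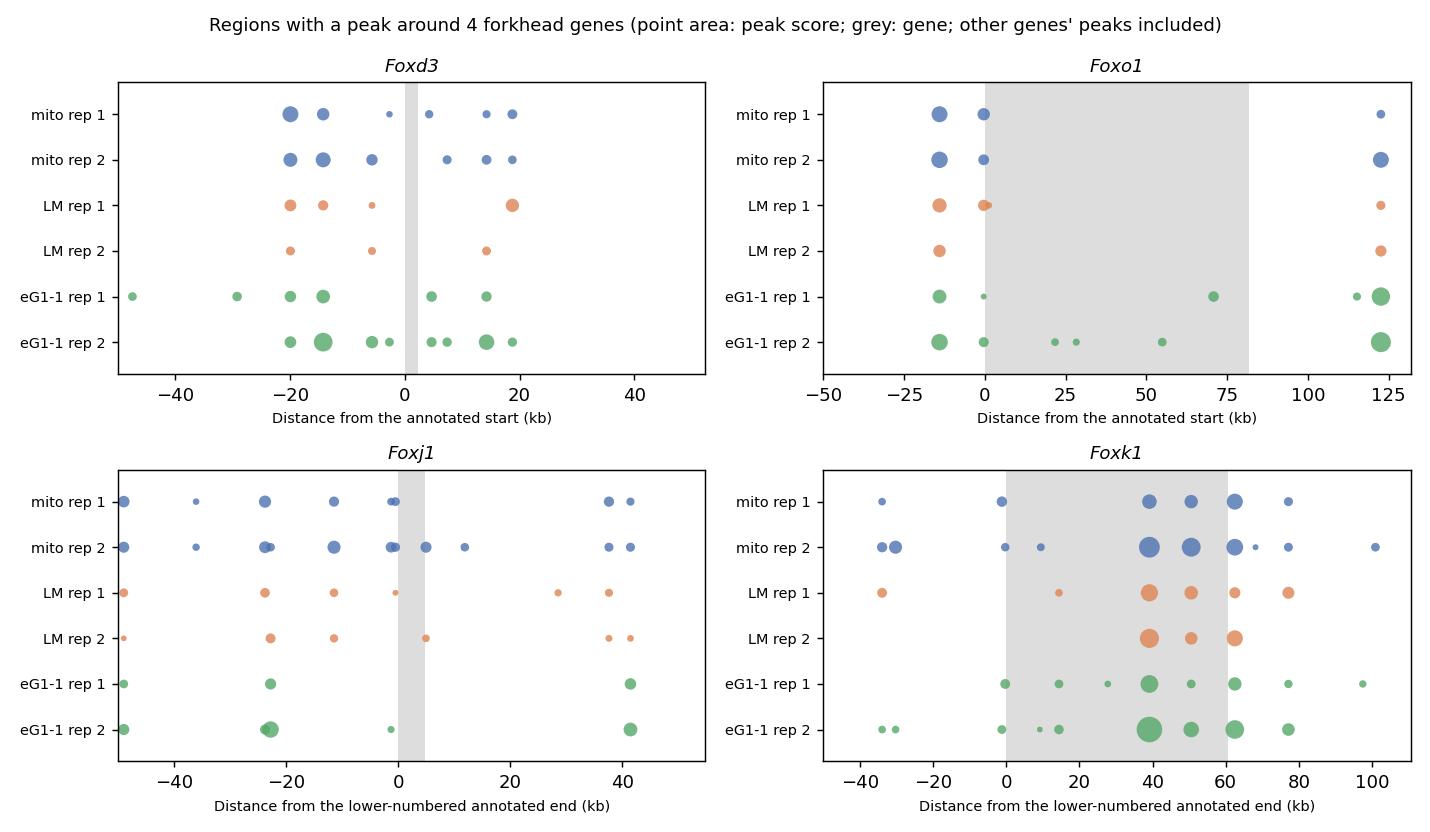
Regions with a peak within 50 kb of Foxd3, Foxo1, Foxj1 and Foxk1 are drawn by the distance of their centre in kb from the annotated start, or from the lower-numbered end where the strand is not in the table, with 1 line of points per list, point area for the score and grey for the gene. The region 14030 bp before Foxo1 and the one 19952 bp before Foxd3 appear in all 6 lists, while the Foxj1 region 11461 bp from the gene appears in the mito and LM lists.

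Both mito lists and no eG1-1 list held 7 of the 219 regions (3.20%), against 1.40% of all distal regions. They include the Foxl2 region above, which was also read as a gene-end peak. Those with the highest lower score were 2 near Foxj1, at chr11:116318917-116319569 with 53 and 88 in the mito lists and 38 and 36 in LM, and at chr11:116368031-116368595 with 54 and 42 and 34 and 25. The third, inside Foxn2 at chr17:88467839-88468650, had 34 and 46 in mito and no peak in the other 4 lists. Held by both mito lists and neither LM list were 9 regions (4.11%), against 3.53% of all. They were led by the Foxp1 promoter region described above, by chr6:122770041-122771141 near Foxj2, with 69 and 48 in mito and 34 and 102 in eG1-1, and by chr9:44483675-44484118 near Foxr1, with 53 and 45 and 78 and 37.

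Held by both eG1-1 lists were 12 regions in neither mito list (5.48%), against 9.41% of all, and 12 in neither LM list (5.48%), against 10.8%. The share of forkhead regions was below that of all distal regions in both. Near Foxh1, chr15:76619721-76620234 had no peak in the mito lists, 24 and 28 in the LM lists, and 114 and 62 in the eG1-1 lists, though it lies 47852 bp from the gene. Near Foxn3, chr12:99162163-99162852 had 71 and 55 in eG1-1 and 56 in LM replicate 2. Past the end of Foxd3, by 2289 bp, chr4:99660682-99661238 had 58 and 52 in eG1-1 and no peak in the other lists. Near Foxa1, chr12:57515687-57516252 had 43 and 66 in eG1-1 alone, and near Foxn2, chr17:88508890-88509755 had 47 and 63 in eG1-1 and 31 in mito replicate 2.

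Held by both LM lists were 3 regions in neither mito list (1.37%), against 0.984% of all, and 3 in neither eG1-1 list (1.37%), against 0.357%. The first set held the Foxh1 region above, chr8:121104005-121104637 in the Foxf1, Foxc2 and Foxl1 cluster with 76 and 22 in LM and 48 in eG1-1 replicate 1, and chr12:57538936-57539256 by Foxa1. The last had 21 and 40 in LM and no peak in the other 4 lists. The second set held this Foxa1 region and both Foxj1 regions above.

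A peak overlapped 8 and 7 of the 33 forkhead promoters in the mito lists, 9 and 2 in the LM lists, and 4 and 8 in the eG1-1 lists. These shares of 24.2% and 21.2%, 27.3% and 6.06%, and 12.1% and 24.2% compare with 39.3% and 41.7%, 40.2% and 29.0%, and 34.0% and 41.7% of the 21263 promoters of the table. The forkhead promoters were GC-rich whether or not a peak lay over them. Their median GC content was 62.7%, against 56.3% over all promoters. The 21 forkhead promoters without a peak in any list had a median GC content of 62.7% and a median of 13 CpG, against 49.3% and 4 over all promoters without one. The 6 with a peak in 3 or more lists had 64.5% and 24 CpG, against 61.3% and 21. In GC content the unmarked forkhead promoters were thus nearer to the marked promoters of all genes than to their unmarked ones.

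Motifs were searched on both strands over the full 300 bases, and a match is only a match of letters. The GC box GGGCGG was found in 72.7% of forkhead promoters and 46.2% of all, and CCAAT in 45.5% and 38.2%. Both are visible in the Foxo1, Foxa3 and Foxd1 sequences printed above, while Foxd2 shows only GC boxes. TATAAA was found in 9.09% and 12.6%, with 1 match in Foxa3, and TTTGAA in 9.09% and 16.0%. TGACGTCA was found in 3.03% and 2.23% and CACGTG in 3.03% and 7.84%, in each case in Foxd3 alone among the forkhead genes. TGTTTAC, the forkhead core, was found in 3.03% and 3.01%, in Foxa1 alone, and CAAGGTCA in 3.03% and 1.34%, in Foxk2 alone. No forkhead promoter held the ETS motif CCGGAAG, found in 11.6% of all, or the YY1 motif AAGATGG, found in 6.24%. None held the octamer ATGCAAAT, found in 1.66% of all, or the E2F motif TTTCCCGC, found in 1.41%. Foxr1 shows no capitals because its CCAAT match lies in the 50 bases after the start, which are not printed. The printed Foxd3 promoter, with no peak in any list, has a GC content of 65.7% over the 300 bases, against 59.0% in Foxr1, 57.7% in Foxd1, 61.3% in Foxo1, 67.7% in Foxd2 and 69.0% in Foxa3.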

How the data were processed

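ATAC-seq peaks of 6 samples in 3 groups were read from 1 deposited list per sample, with chromosome, start, end, name and score. The score is the authors' value per peak, a whole number of at least 13 in the deposited lists. What it was scaled to is not given, so it was used to filter and describe the peaks of 1 list at a time, and no difference in score between lists was tested. The single use across lists was the median that ranked regions for naming. Per the peak names, peaks were called per sample. Tn5 was produced in house and sequencing was paired-end, per the labels' protocols. Tools named, without roles, were MACS2 2.2.4, STAR 2.7.0e, bedtools, deepTools 3.5.1, SAMtools 1.10 and Picard, with the builds GRCm38 and mm10, per the submitters' processing notes. Whether reads were shifted for the Tn5 offset is not given in the sources used here. Depth is unknown, so a longer list may only be a deeper one, and equal list length was an alternative.

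Gene ends came from RefSeq on GRCm38.p6, the assembly of mm10, in a table without strand, and promoters from a RefSeq table with strand. Peaks at start sites inside a gene count as distal. Regions are overlapping peaks merged over the lists. The slope test was tested on simulated data, and distal counts were tested as peaks per gene per 1000 distal peaks of the list. Values came from Python 3.11.15 with pandas 2.3.3, numpy 2.4.6, statsmodels 0.14.6 and matplotlib 3.10.9.

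The members and lists were chosen with earlier results of these data known. The values of 1 forkhead gene are not reported here, while counts over the family include it. Genes named with all scores were those held in all 6 lists, those called in any of the group comparisons and Foxd3, Foxh1, Foxo1, Foxo3, Foxm1, Foxp1, Foxk1, Foxk2, Foxa1 and Foxa2. Scores of the other members were added to account for each of them. Regions named were the 10 with the highest median score among those in all 6 lists and up to 3 per comparison and direction by the lower score. Alternatives were list length, a score minimum of 50, the windows, the peak centre, leaving out each list, and blocking by replicate number. Replicate numbers mark sequencing runs per the peak names. Deviations of distal counts correlated between same-numbered lists at 0.0205 for mito and LM, 0.0987 for mito and eG1-1 and -0.0217 for LM and eG1-1.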

Additional observations from a re-analysis of the deposited data

How the results depend on the processing

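Of 105 alternative values, 62 were within 1.5-fold of the value reported, including 9 of 9 when the peak centre had to lie in the window. On the 20639 strongest peaks, the eG1-1 mean was 9.5 genes, mito not LM, eG1-1 not mito and eG1-1 not LM held 1 gene each, and the distal means were 60 in mito and 53 in eG1-1. With scores of at least 50, the gene-end means were 13.5, 8.5 and 10 in mito, LM and eG1-1, LM not eG1-1 held 0 genes, eG1-1 not mito and eG1-1 not LM held 1 each (0.352%, 1.23% and 2.43% of all genes), the distal means were 46, 25.5 and 58.5, and 0 forkhead genes had a slope at an unadjusted p under 0.05. With a 500 bp window mito not LM held 1 gene (2.06% of all genes), and with a 2 kb window mito not eG1-1 held 2 (1.61%) and LM not mito 1 (0.393%). Within 25 kb the distal means were 55.5, 44.5 and 74, and within 100 kb 140, 102 and 198. Within 100 kb 4 forkhead genes had an unadjusted slope p under 0.05, as did 1204 of all 19730 genes tested. With scores of at least 50, 234 of all 15934 genes tested had one. The cause of these shifts was not tested, beyond fewer or more peaks being read.

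Leaving out 1 list in turn gave gene-end values of 20 to 25 in mito, 8 to 22 in LM and 15 to 20 in eG1-1, and distal values of 74 to 111, 56 to 78 and 85 to 158. The genes held ranged from 3 to 12 for mito not LM (3.42% to 11.2% of all genes), 4 to 7 for mito not eG1-1 (2.97% to 7.88%), 0 to 2 for LM not mito (0.905% to 2.29%), 1 to 6 for LM not eG1-1 (0.832% to 3.29%), 2 to 4 for eG1-1 not mito (2.51% to 5.44%) and 4 to 7 for eG1-1 not LM (3.43% to 8.83%). Forkhead genes at an unadjusted slope p under 0.05 ranged from 0 to 2, where the runs without an LM list cannot go below 0.0667. The runs with 2 were those without mito replicate 1, where 707 of all 18277 genes had such a p, and without mito replicate 2, where 771 of 18226 did. With the replicate block, over 36 assignments with a smallest exact permutation p of 0.0556, 0 forkhead genes passed, and Foxj1 had that smallest p.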

Other observations

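Genes that work with forkhead factors were read in the same way, as lists chosen with earlier results of these data known and described by counts alone. Of 25 targets of FOXM1 and the MuvB complex, which peak in G2 and mitosis, 25 and 25 had a gene-end peak in the mito lists, 25 and 23 in the LM lists, and 23 and 24 in the eG1-1 lists. All 6 lists held 22 of the 25, against 27.8% of all protein-coding genes, and none of the group comparisons called any. Plk1, the mitotic kinase, had scores of 161 and 157, 86 and 86, and 117 and 176, and Ccnb1, the mitotic cyclin, had 158 and 170, 137 and 98, and 179 and 295. The gene of their activator, Foxm1, had a peak in 3 of the 6 lists.

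Of 30 regulators and cofactors of FOXO proteins, 20 and 21 were marked in the mito lists, 21 and 16 in the LM lists, and 14 and 23 in the eG1-1 lists. For this and the next 2 sets, the shares over all genes were 46.6% and 50.4%, 47.4% and 35.7%, and 42.1% and 52.7%. Igf1r, the IGF1 receptor, was held by both mito lists and neither LM list, with 62 and 74, where 2.17% of all genes were. Mapk8, the kinase JNK1, was held by the eG1-1 lists alone, with 61 and 96. Of all genes, 1.61% were held by both eG1-1 lists and neither mito list, and 2.35% by both and neither LM list. Of 20 FOXO targets, 16 and 17, 16 and 12, and 11 and 16 were marked. Bbc3 (61 and 33 in mito) and Sod2 (67 and 25) had a peak in both mito lists and in no eG1-1 list, 2 of 20 where 1.97% of all genes were. Bbc3 had none in the LM lists either. Of 16 Nodal pathway genes and FOXH1 partners, 8 and 11, 8 and 5, and 9 and 10 were marked. Smad3, Tdgf1 and Nodal showed a peak in each mito list but in no LM list, 3 of 16 against 2.17% of all genes. Acvr2a and Tdgf1 showed one in each eG1-1 list but in no LM list, 2 of 16 against 2.35%. Nodal had scores of 63 and 67 in mito, none in LM and 62 in eG1-1 replicate 2. Its co-receptor gene Tdgf1 had 28 and 82, none, and 71 and 57. Smad3 had 39 and 33 in mito and 26 in eG1-1 replicate 1. Acvr2a had 44 in mito replicate 2 and 47 and 63 in eG1-1.

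Inside the 3 forkhead genes of over 100 kb, peaks away from gene ends numbered 5 and 5, 6 and 3, and 2 and 12 in Foxp1, 4 and 6, 6 and 3, and 5 and 9 in Foxn3, and 0 in every list in Foxp2. The Sox family, with 19 genes, had 9 and 12, 12 and 6, and 9 and 12 marked genes, and the Hox family, with 39, had 11 and 15, 13 and 3, and 5 and 12.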
